A study of Mus musculus with 4 samples.

Results

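Type I interferon response genes were examined in sorted mouse retinal microglia, with and without induced loss of TAK1. The set was a list of 37 genes, namely 3 transcription factors, 3 sensors of foreign or misplaced nucleic acid and 31 effectors. Of these, 33 were among the 15586 genes measured and 29 of the 33 passed a filter on low values, a mean of 1 FPKM or more (fragment counts scaled by transcript length and by all mapped fragments). Ifit3b, Oas2, Rsad2 and Cmpk2 did not reach it, and Oasl1, Oas3, Mx1 and Mx2 were not analysed here.

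Microglia, the macrophages that live within the retina, were sorted on EYFP from 2-month-old mice, and RNA from 200 cells was amplified for each library. There were 2 control libraries and 2 TAK1 knockout libraries. Control mice were Cx3cr1CreER/+;Tak1fl/fl and received corn oil into the peritoneum daily for 5 days. Knockout mice received tamoxifen at 75 mg/kg by the same route for 5 days, and their genotype is labelled Cx3cr1CreER/+;Tak3fl/fl, although the protocol gives Tak1fl/fl for all mice. All mice therefore carried a tamoxifen-inducible Cre at the Cx3cr1 locus, a locus that is also active in monocytes and other macrophages. Tamoxifen was given to the knockout group alone, so the drug and the deletion cannot be told apart. No label ties the libraries to separate animals. The p-values given below therefore set each difference against the spread among these libraries, partly drawn from other genes, and that spread may be technical.

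Type I interferons bind a receptor made of the IFNAR1 and IFNAR2 chains. JAK1 and TYK2 then phosphorylate STAT proteins. STAT2 and IRF9 are parts of the complex ISGF3, which binds the interferon-stimulated response element (ISRE) in the promoters of the response genes. Microglia carry this pathway and are known to take up an interferon-response state in ageing, infection and neurodegeneration, and TAK1 (gene Map3k7) is a kinase that passes signals from receptors for cytokines and microbial products on to NF-kB.

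Microglial markers were present in every library, and so were markers of some other cell types, given below. Each of the 16 microglial markers examined read above 1 FPKM throughout, except Sall1, which read 0.07 in control 1. Summed FPKM ran from 812009 to 969700 per library, and reads per library were unknown. Of the 15586 genes measured, 4481 and 3777 reached 1 FPKM in controls 1 and 2, and 6055 and 5628 in knockouts 1 and 2. The gene for TAK1, Map3k7, stayed at 0.08 FPKM or less in each library. Both groups were near 0, which does not check the labels. Libraries of the same group often disagreed, with near 0 in one and a high value in the other. A value near 0 is therefore no sign that a gene was off, and each library's value is given.

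The interferon response genes did not move as 1 group. Of the 7 members that averaged 100 FPKM or more, 6 read lower in both knockout libraries than in both controls, where 26.5% of genes at that level did and 19% lay above. That bound was chosen after seeing the data. Irf9 and Zbp1 read higher. For 15 of the 29 tested members the highest value was in control 2, as it was for 19.6% of all tested genes. In bulk RNA, fewer responding cells and less RNA per cell cannot be told apart. No member passed limma's test, with an adjusted p of at least 0.559 for each of the 29, and 0% of the 7823 genes tested passed it. At an unadjusted limma p under 0.05, 1 member was higher (Irf9) and 4 were lower (Ifi44, Rtp4, Ifitm3 and Ifi204), where the background was 6.07% of genes higher and 1.62% lower (7.7% in either direction). Without any ranking by p, 4 of 29 members had both knockout values above both control values, and 9 had both below. Over all tested genes those shares were 27.8% above and 11.4% below. Median ratio scaling gave 3 members above and 11 below, against 20.2% and 20.7% of genes, and quantile normalization gave 2 above and 11 below, against 18.3% and 19.9%. Leaving out control 1 gave 4 of 27 members above and 18 below, against 45.3% and 24.6% of genes. Leaving out control 2 gave 9 of 26 above and 12 below, against 42.1% and 27.3%. The median knockout minus control difference on the log2(FPKM + 1) scale was -0.86 over the members and 0.94 over all tested genes. That upward shift of the whole table lies in the less abundant genes, with a median of 1.25 for genes with a mean of 1 to under 100 FPKM and -0.11 for genes at 100 FPKM or more.

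**Figure D1:**
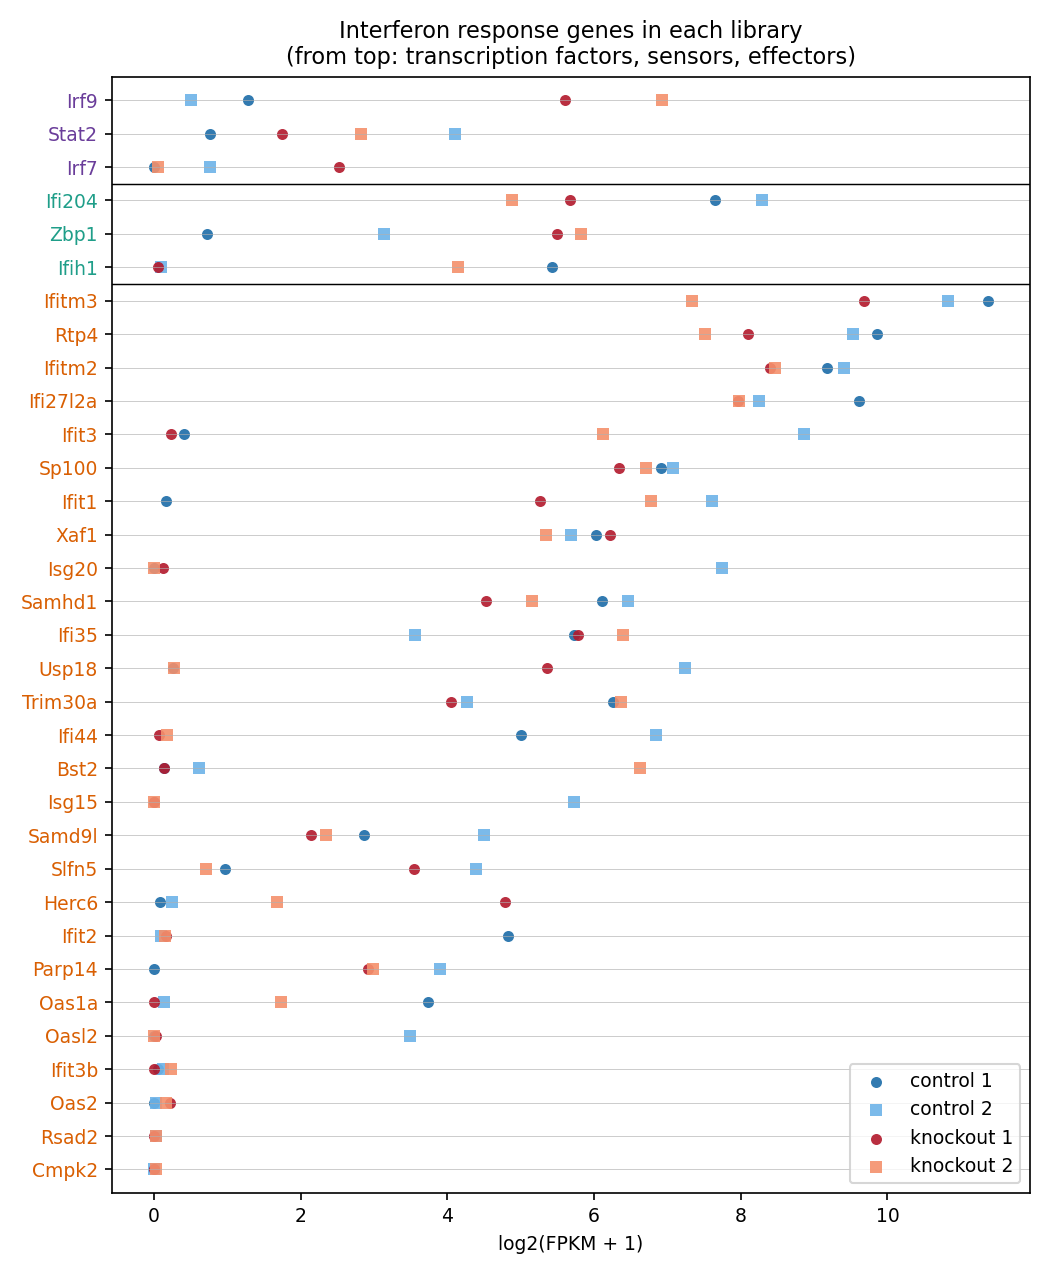
FPKM of each of the 33 measured members in each of the 4 libraries, drawn on a log2(FPKM + 1) axis and ordered by role, with 1 point per library. Ifitm3 runs from 2648 FPKM in control 1 to 161 in knockout 2, whereas Isg15 and Isg20 stand high in control 2 alone.

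Of the transcription factors, Irf9 differed most. It encodes the DNA-binding subunit of ISGF3 and lies at chr14:55603985-55610030 (gene coordinates are those of GRCm38.p6). Irf9 read 1.42 and 0.41 FPKM in controls 1 and 2 and 47.5 and 120.4 in knockouts 1 and 2. Both knockout libraries were far above both controls, with no overlap. The difference was 5.38 on the log2 scale (SE 1.53, 95% interval 1.64 to 9.12), and the limma adjusted p was 0.559. With any 1 library left out it lay between 4.72 and 6.04.

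Stat2, which brings the activation domain to ISGF3, had no such pattern. It read 0.69 and 16.2 FPKM in controls versus 2.36 and 6.05 in knockouts, so both knockout values lay between the controls, and the difference was -0.15 (limma adjusted p = 0.982). Irf7, the factor that amplifies interferon production once it has been induced, read 0 and 0.69 FPKM in control libraries, and 4.72 and 0.04 in knockout libraries. Only knockout 1 exceeded 1 FPKM, and the difference was 0.91 (SE 1.61, limma adjusted p = 0.795).

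The sensors went separate ways. Zbp1, which binds Z-form nucleic acid and can start cell death through RIPK3, lies at chr2:173206612-173218959. It read 0.65 and 7.82 FPKM among controls, against 44.0 and 55.8 among knockouts. The groups did not overlap, the knockout mean was 11.8 times the control mean, and the log2 difference was 3.73 (SE 1.59, 95% interval -0.17 to 7.63, limma adjusted p = 0.667).

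Ifi204, a DNA-binding member of the PYHIN family at chr1:173747293-173767069, stood the other way. It read 199 and 311 FPKM in controls versus 49.98 and 28.5 in knockouts, and the groups did not overlap. The control mean was 6.50 times the knockout mean, with a log2 difference of -2.69 (SE 0.93, 95% interval -4.97 to -0.40, limma adjusted p = 0.582). Of the 50-base windows of its longest protein-coding transcript, 30.2% also occur in transcripts of other genes, mostly its neighbour Ifi211. Its reads could therefore have been assigned to either. Ifih1, which encodes MDA5, the sensor of long double-stranded RNA, read 42.0 and 0.07 FPKM in control libraries, and 0.04 and 16.6 in knockout libraries. One library of each group was high and one near 0, and its difference of -0.66 ran from -3.33 to 2.00 as single libraries were left out.

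The effectors made up most of the set, with 23 tested. Of these, 8 lay below the controls in both knockout libraries, 2 lay above and 13 overlapped, where 11.4% of all tested genes lay below and 27.8% above. Their median difference was -0.96, against 0.94 for all tested genes. Their families are taken in turn.

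The IFITM proteins sit in cell membranes and hinder the fusion of enveloped viruses. Ifitm3, at chr7:141009590-141010744, was the most abundant member of the whole set. It read 2648 and 1815 FPKM among controls, against 819.6 and 161 among knockouts. Both knockouts lay below both controls, but they were far apart from each other. The log2 difference was -2.59 (SE 0.79, 95% interval -4.53 to -0.65, limma adjusted p = 0.559), and it was -3.76 without knockout 1 and -1.42 without knockout 2. Ifitm2, a nearby gene at chr7:140954837-140959686, read 575 and 678 FPKM in controls versus 336 and 352 in knockouts. Its groups were tight and separate, and the control mean was 1.82 times the knockout mean (log2 difference -0.86, SE 0.51, 95% interval -2.10 to 0.38, limma adjusted p = 0.698). The 2 genes thus lay on the same side, by different amounts. Their reads are not fully distinct from those of other genes. In their longest protein-coding transcripts, 48.5% of the 50-base windows of Ifitm2 and 10.02% of those of Ifitm3 occur in another gene.

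The IFIT proteins bind viral RNA that lacks host marks at its 5′ end, and their genes form a cluster on chromosome 19. Ifit1, at chr19:34640889-34650009, read 0.12 and 194 FPKM in control libraries, and 37.5 and 109 in knockout libraries. Ifit3, at chr19:34583119-34588982, read 0.33 and 463 FPKM among controls, against 0.17 and 68.3 among knockouts. For both genes control 1 was near 0, control 2 was the highest library and knockout 2 was the second highest. Ifit2 read 27.4 and 0.07 FPKM in controls versus 0.12 and 0.11 in knockouts, so it was high in control 1 where its neighbours were near 0. The log2 differences were 2.13 for Ifit1, -1.46 for Ifit3 and -2.31 for Ifit2. Leaving out single libraries moved Ifit1 from -1.59 to 5.86 and Ifit3 from -5.69 to 2.76, so neither had a stable direction. Ifit3b read 0.17 FPKM or less in each library. Of the windows of the longest Ifit3 transcript, 51.2% are shared with Ifit3b. How the authors' counting divided such reads is not given in the sources used here.

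Promoter sequences of some of these genes are shown for comparison. They are taken from RefSeq (GRCm38.p6), cover 250 bases upstream of an annotated start of the gene and are written 5′ to 3′ on its own strand. Capitals mark matches to the ISRE core, searched as GAAANNGAAA on both strands. Ifitm2 is shown because it was the only member with separate groups whose promoter, where one was found, held a match. The promoters of Ifit1, Ifit3 and Ifit3b were chosen after their values were seen, because Ifit1 and Ifit3 had their highest value in control 2 and Ifit3b shares sequence with Ifit3. Ifit2, which was highest in control 1, had 0 matches in its 2 windows and is not shown. The windows are chr7:140955962-140956211 on the minus strand for Ifitm2, and chr19:34640639-34640888, chr19:34583279-34583528 and chr19:34607707-34607956, all on the plus strand, for Ifit1, Ifit3 and Ifit3b.
Ifitm2: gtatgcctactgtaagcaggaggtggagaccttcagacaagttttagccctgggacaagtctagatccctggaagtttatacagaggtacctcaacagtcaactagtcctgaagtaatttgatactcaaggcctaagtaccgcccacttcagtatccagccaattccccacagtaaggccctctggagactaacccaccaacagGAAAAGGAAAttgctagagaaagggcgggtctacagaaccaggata
Ifit1: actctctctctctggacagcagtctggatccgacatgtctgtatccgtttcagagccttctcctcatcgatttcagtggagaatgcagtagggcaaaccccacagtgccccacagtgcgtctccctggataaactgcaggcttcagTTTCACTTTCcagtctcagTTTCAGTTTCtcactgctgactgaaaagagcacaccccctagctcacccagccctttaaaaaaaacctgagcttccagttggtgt
Ifit3: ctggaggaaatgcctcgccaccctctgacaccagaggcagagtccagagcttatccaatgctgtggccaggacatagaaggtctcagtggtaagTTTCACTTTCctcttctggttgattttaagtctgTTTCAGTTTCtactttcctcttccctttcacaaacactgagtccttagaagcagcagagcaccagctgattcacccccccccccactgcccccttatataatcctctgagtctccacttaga
Ifit3b: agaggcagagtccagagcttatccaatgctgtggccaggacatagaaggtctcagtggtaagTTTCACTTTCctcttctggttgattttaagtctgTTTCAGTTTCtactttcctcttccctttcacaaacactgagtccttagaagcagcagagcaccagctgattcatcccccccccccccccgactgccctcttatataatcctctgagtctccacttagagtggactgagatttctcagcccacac
The 3 IFIT promoters shown each carry a pair of matches that read TTTCACTTTC and then TTTCAGTTTC on the strand shown. The pair begins 104 and 85 bases upstream of the start in Ifit1, 156 and 122 bases upstream in Ifit3 and 188 and 154 bases upstream in Ifit3b. Ifitm2 has 1 match, GAAAAGGAAA, which begins 46 bases upstream. The windows of Ifitm2, Ifit3 and Ifit3b lie inside the coordinates of their genes, so the starts used there are not the outermost ones.

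RefSeq promoters were found for 25 of the 33 measured members. An ISRE core was present in 10 of the 25 (40%), against 936 of 27025 genes (3.46%). The holders were Stat2, Ifit1, Ifit3, Ifit3b, Ifitm2, Oas1a, Rsad2, Bst2, Trim30a and Slfn5, and the matches within Oas1a and within Bst2 overlap each other. A match was found in 1 of 6 promoters of members below the controls (16.7%), in 0 of 3 of those above and in 7 of 13 of those that overlapped (53.8%). The other 3 of the 25 promoters belong to members under the filter. A GAS element, a site bound by STAT dimers and searched as TTCNNNGAA on both strands, was present in 5 of 25 member promoters (20%) and in 8.13% of all genes. The holders were Ifit2, Oas1a, Isg20, Samhd1 and Bst2. A match is a stretch of letters in this window and no evidence of binding.

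OAS enzymes make an oligoadenylate messenger that activates RNase L, and they were low. Oas1a read 12.3 and 0.10 FPKM in control libraries, and 0 and 2.31 in knockout libraries, with 57.6% of its transcript windows shared with Oas1g. Oasl2, an OAS-like gene, read 0 and 10.3 FPKM among controls, against 0.02 and 0 among knockouts. Each gene passed 10 FPKM in 1 control and in neither knockout, but not in the same control. Oas2 read 0.16 FPKM or less throughout.

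ISG15 is a ubiquitin-like protein that interferon induces and that is attached to other proteins. Isg15, at chr4:156199424-156200818, read 52.0 FPKM in control 2 and 0 in the other 3 libraries. Usp18, the protease that removes ISG15 and also restrains the interferon receptor, read 0.19 and 151 FPKM in controls versus 40.2 and 0.21 in knockouts. Herc6, the main ISG15 ligase of the mouse, read 0.06 and 0.18 FPKM in control libraries, and 26.7 and 2.20 in knockout libraries. The modifier and its protease peaked in control 2, whereas the ligase was above the controls in both knockouts. The Herc6 log2 difference was 3.07 (SE 1.81, limma adjusted p = 0.698), and without knockout 2 it was 4.63 with a limma adjusted p of 0.0422, in a fit where 1306 of 7068 genes (18.5%) were called higher. In that fit 1 knockout library stood for its group and was taken to vary like the controls. Of the Herc6 transcript windows, 23.8% occur in another gene model.

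Among nucleases and nucleotide enzymes, Samhd1 and Isg20 were the ones detected. Samhd1, which hydrolyses the deoxynucleotides that retroviruses need, lies at chr2:157097534-157135096. It read 67.9 and 87.2 FPKM among controls, against 22.05 and 34.5 among knockouts. The groups did not overlap, and the control mean was 2.74 times the knockout mean (log2 difference -1.45, SE 1.12, limma adjusted p = 0.698). Isg20, an RNA exonuclease, read 0 and 212 FPKM in controls versus 0.09 and 0 in knockouts, so control 2 alone held its signal. Rsad2, which encodes viperin, read 0.02 FPKM or less and Cmpk2, a mitochondrial nucleotide kinase encoded beside it, read 0.02 or less.

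The remaining effectors have various functions. Rtp4, a Golgi chaperone for membrane receptors that interferon induces strongly, lies at chr16:23520219-23614222. It read 930 and 736 FPKM in control libraries, and 273 and 181 in knockout libraries. The groups were separate, with a control mean of 833 ± 137 FPKM (SD, n = 2) and a knockout mean of 227 ± 65.3 (SD, n = 2). The control mean was 3.67 times the knockout mean, with a log2 difference of -1.89 (SE 0.55, 95% interval -3.25 to -0.54, limma adjusted p = 0.559). Ifi27l2a, a small mitochondrial membrane protein that marks interferon-responsive microglia, read 785 and 304 FPKM among controls, against 249 and 251 among knockouts. The groups were separate, but control 1 stood apart from the other 3 libraries, and the log2 difference was -0.96 over all libraries and -0.28 without control 1.

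Ifi44, at chr3:151730922-151749910, is induced by interferon and related to GTPases. It read 31.1 and 114 FPKM in controls versus 0.05 and 0.13 in knockouts, so it was present in both controls and near 0 in both knockouts. The log2 difference was -5.80 (SE 1.63, 95% interval -9.78 to -1.82, limma adjusted p = 0.559). Samd9l, a restriction factor for poxviruses, read 6.26 and 21.6 FPKM in control libraries, and 3.42 and 4.06 in knockout libraries. Sp100, a structural protein of nuclear bodies, read 120 and 133 FPKM among controls, against 80.2 and 104 among knockouts. Both sets of values were separate, with control means 3.73 and 1.38 times the knockout means and log2 differences of -1.44 and -0.47.

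Ifi35, a partner of the STAT-interacting protein NMI, lay on the other side, with 51.8 and 10.8 FPKM in controls versus 53.7 and 83.2 in knockouts. Its lowest knockout value exceeded the highest control by less than the spread within either group, and the log2 difference was 1.45 (limma adjusted p = 0.698). Bst2, which encodes tetherin and holds budding virus on the cell surface, read 0.10 and 0.53 FPKM in control libraries, and 0.10 and 98.2 in knockout libraries. Knockout 2 alone held its signal.

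Another 4 effectors overlapped and were present in both groups. Xaf1, a pro-apoptotic partner of XIAP, read 64.0 and 50.3 FPKM among controls, against 73.0 and 39.7 among knockouts. Trim30a, a tripartite-motif protein, read 75.6 and 18.2 FPKM in controls versus 15.6 and 81.9 in knockouts. The control and knockout means were 57.2 and 56.4 FPKM for Xaf1 and 46.9 and 48.7 for Trim30a, closer than the libraries within each group. Parp14, an ADP-ribosyltransferase, read 0 and 13.9 FPKM in control libraries, and 6.53 and 6.93 in knockout libraries. Slfn5, of the Schlafen family, read 0.96 and 20.0 FPKM among controls, against 10.7 and 0.63 among knockouts.

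The counts varied with abundance, both for the members and for all tested genes. Of the 7 members with a mean of at least 100 FPKM (Ifitm3, Rtp4, Ifitm2, Ifi27l2a, Ifi204, Ifit3 and Sp100), 6 lay below the controls in both knockouts and 0 lay above, with Ifit3 overlapping. Among all 1177 genes at that level, 26.5% lay below and 19% above. The median log2 difference of the 7 was -1.46, against -0.11 for the 1177. Of the 22 less abundant members, 3 lay below (13.6%) and 4 above (18.2%), against 8.7% and 29.3% of the 6646 genes at that level. Their median was -0.35 against 1.25. In both ranges the median of the members thus lay under that of all tested genes at the same level.

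**Figure D2:**
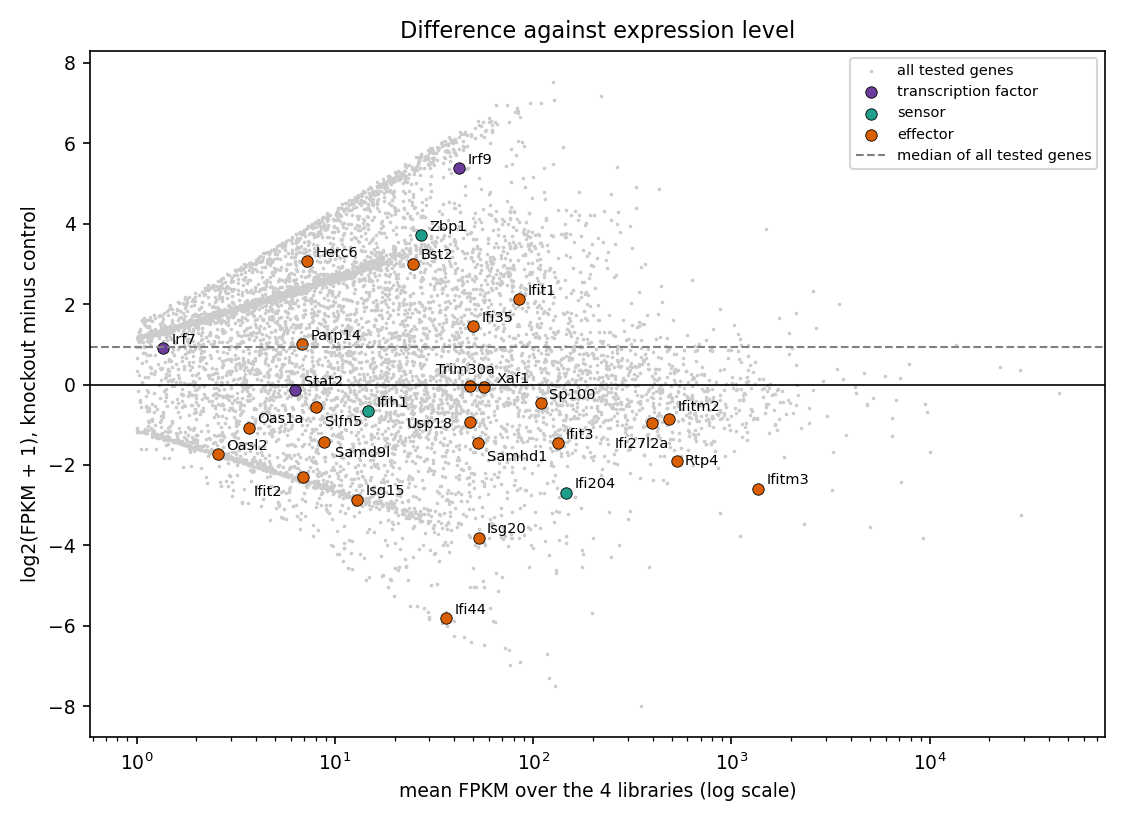
Log2 difference, knockout minus control on log2(FPKM + 1), against the mean FPKM of each gene on a log axis, with the 29 members by class over all 7823 tested genes in grey. Of the 7 members at 100 FPKM or more, all lie below 0, whereas the less abundant ones scatter on both sides, up to Irf9 at 5.38.

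The summed level of the set was higher in both controls. The 33 measured members summed to 5639 and 5422 FPKM in controls versus 2197 and 1807 in knockouts. These were 0.582% and 0.628% of all FPKM in controls 1 and 2, and 0.267% and 0.222% in knockouts 1 and 2. Without Ifitm3 the sums were 2991, 3607, 1377 and 1646 FPKM in the same order. The controls stayed above the knockouts in both versions. Summed monocyte markers stood on the same side, at 885 and 1665 FPKM in controls 1 and 2 and 195 and 122 in knockouts 1 and 2. Ms4a4c, also counted below among the interferon-induced genes, gave 417, 1211, 138 and 120 FPKM of these in the same order. The part of monocyte markers in the sums of the members was not tested.

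**Figure D3:**
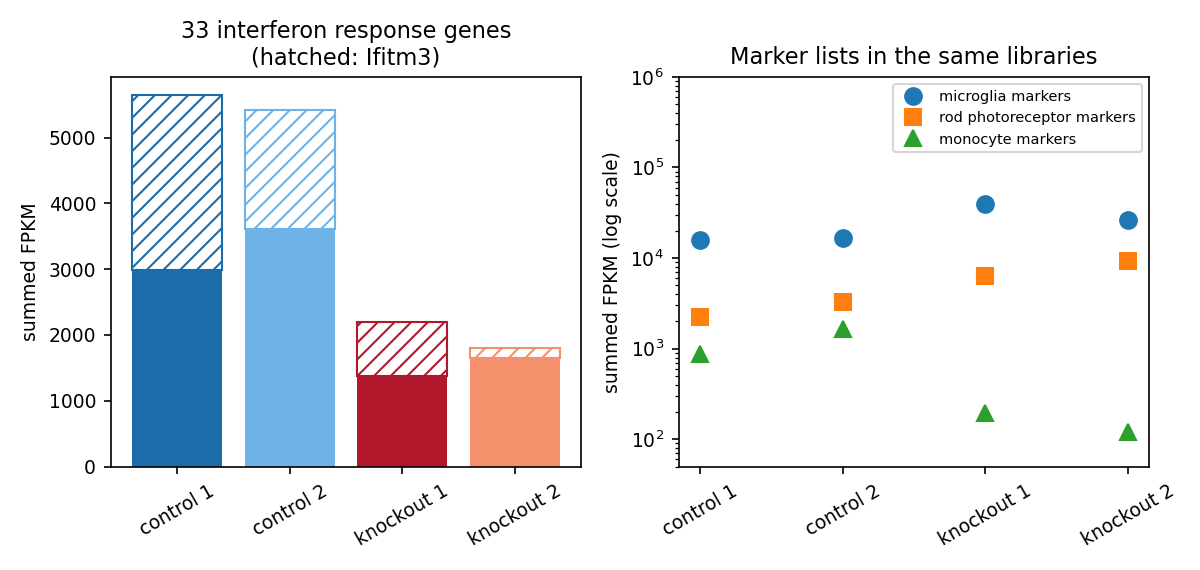
Summed FPKM of the members in each library, with and without Ifitm3, as bars from 0. With Ifitm3 the controls reach 5639 and 5422 FPKM and the knockouts 2197 and 1807; without it all 4 bars are shorter and the controls remain the taller ones.

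Libraries of 1 group often disagreed about the antiviral genes. In the controls, 12 of 29 members (41.4%) were under 1 FPKM in 1 library and at 10 FPKM or more in the other, against 23.4% of all tested genes. Control 2 was the high library for 9 of the 12 (Stat2, Ifit1, Ifit3, Oasl2, Isg15, Usp18, Isg20, Parp14 and Slfn5) and control 1 for 3 (Ifih1, Ifit2 and Oas1a). In the knockouts 5 members (17.2%) were split that way, against 24.7% of genes. Control 2 held the highest value of 15 of the 29 members (51.7%), while it held the highest value of 19.6% of all tested genes. It also had 22 members at 1 FPKM or more (75.9% of those tested). Control 1 had 16 (55.2%), knockout 1 had 20 (69.0%) and knockout 2 had 21 (72.4%). Of all tested genes, 46.9% reached 1 FPKM in control 2, against 55.5% in control 1, 72.4% in knockout 1 and 67.7% in knockout 2.

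For 6 members (20.7%) more than 90% of the summed FPKM came from 1 library, which was so for 32.1% of tested genes. Those were Ifit2 in control 1, Oasl2, Isg15 and Isg20 in control 2, Herc6 in knockout 1 and Bst2 in knockout 2. At the other end, 11 of 29 members (37.9%) were at 1 FPKM or more in all 4 libraries, against 26.4% of genes. Single libraries set the direction of 15 members. Ifit1, Ifit3, Ifih1, Usp18, Slfn5, Stat2, Parp14, Trim30a and Xaf1 each turned sign in a fit with 1 library left out. For another 8 members the omission of the library with most signal put the mean under 1 FPKM, so no fit was made. From their values, Irf7, Ifit2, Oas1a, Oasl2, Isg20 and Bst2 turned sign as well, the difference of Isg15 went to 0 and that of Herc6 went to 1.52. The other 13 members, Herc6 among them, had separate groups, which fixes the sign when 1 library is left out.

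**Figure D4:**
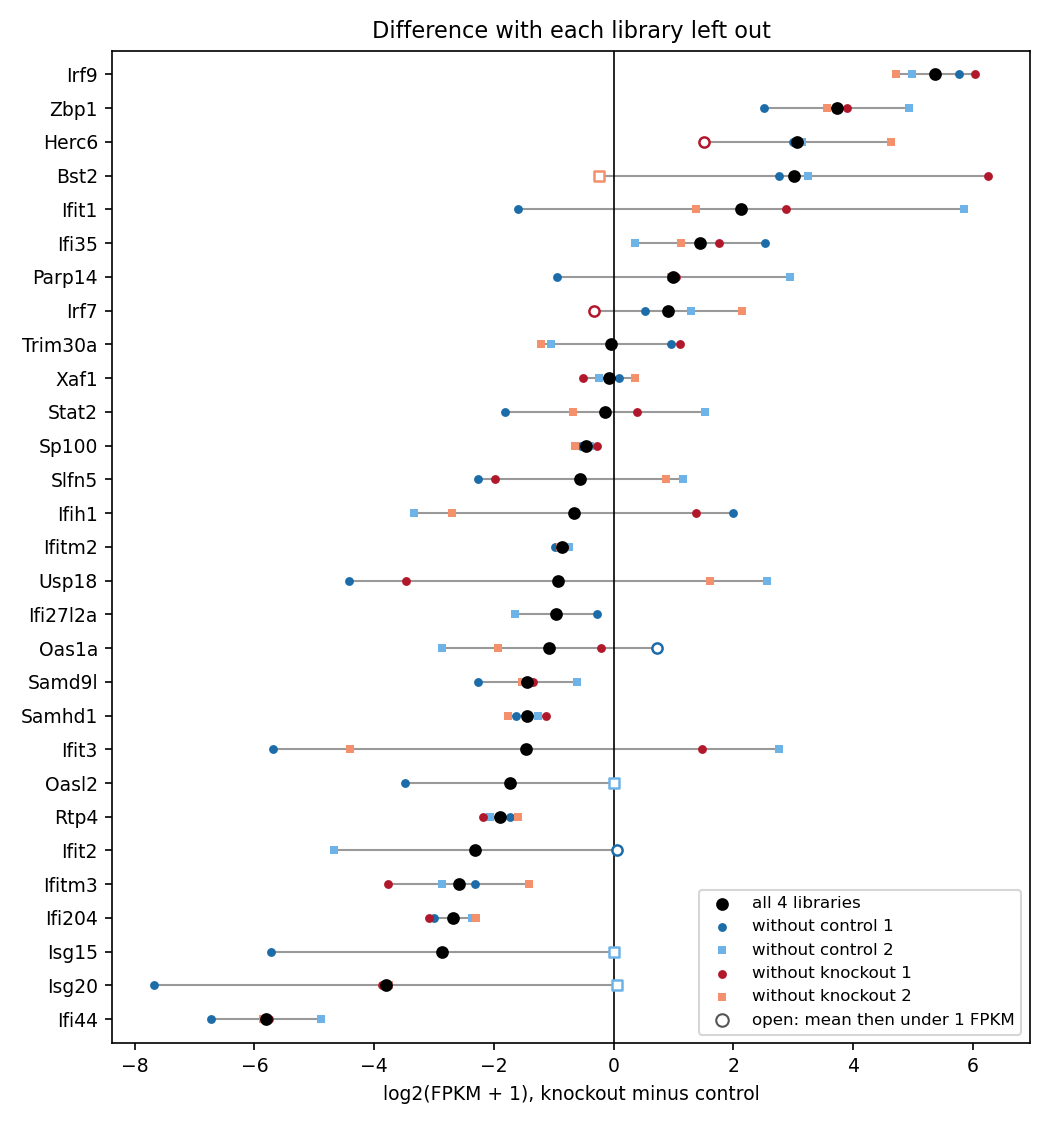
Log2 difference of each tested member over all 4 libraries (black point) and with each library left out in turn (coloured points joined by a line), where open points are omissions that put the mean under 1 FPKM. Irf9 stays between 4.72 and 6.04 and Ifitm3 between -3.76 and -1.42, whereas Ifit1 spans -1.59 to 5.86, and Ifit2, Oasl2 and Isg20 go from well below 0 to 0.059, 0.014 and 0.062 without their high control.

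Other genes of the pathway give the setting of these values. Each count of genes above or below stands against 27.8% and 11.4% of all tested genes. Of 9 tested genes for the receptor and its signalling, 3 lay above the controls, 1 lay below and 0 passed limma's test. Ifnar2 read 94.95 and 72.8 FPKM in control libraries, and 236 and 224 in knockout libraries. Ifnar1, named here after its values were seen, read 41.8 and 49.6 FPKM among controls, against 19.5 and 18.4 among knockouts. The 2 chains of 1 receptor thus lay on opposite sides, each with separate groups, with log2 differences of 1.46 (SE 0.80) and -1.22 (SE 1.22). Pias1, an inhibitor of STAT signalling, read 188 and 0.44 FPKM in control libraries, and 64.5 and 67.4 in knockout libraries, and the groups overlapped. Ptpn6, a phosphatase that restrains JAK signalling, read 15.8 and 24.7 FPKM among controls, against 78.5 and 54.5 among knockouts, with no overlap.

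Of 11 tested genes of nucleic acid sensing upstream of interferon, 4 lay above the controls (36.4%, near the 27.8% of all tested genes), 0 lay below and 0 passed the limma test, with a median of 1.31. Sting1, the adaptor for cytosolic DNA, read 0.26 and 23.0 FPKM in controls versus 139 and 77.4 in knockouts. Tlr7, an endosomal receptor for single-stranded RNA, read 42.4 and 1.57 FPKM in control libraries, and 65.7 and 94.8 in knockout libraries. Unc93b1, which carries such receptors to the endosome, read 8.62 and 35.5 FPKM among controls, against 57.9 and 35.7 among knockouts. All 3 had separate groups, Unc93b1 by a narrow margin, while Tbk1, the kinase downstream of Sting1, read 9.60 and 122 FPKM in controls versus 64.1 and 35.4 in knockouts and overlapped. Of the interferon ligands, 1 gene was measured, Ifna5, at 0.19 FPKM or less.

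Among 3 other tested interferon regulatory factors, Irf8, a lineage factor of microglia, read 35.1 and 24.2 FPKM in control libraries, and 10.2 and 8.72 in knockout libraries, with separate groups. Irf2 and Irf1 overlapped. Irf2 read 13.9 and 0.14 FPKM among controls, against 13.8 and 15.9 among knockouts, and Irf1 was above 0.08 FPKM only in knockout 2, at 23.6.

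The 38 tested members of a second list, of other interferon-induced genes, had a median of -0.88. Of these, 10 lay below the controls, 2 lay above and 0 passed the limma test, with 3 lower at an unadjusted p under 0.05. The chemokine Ccl12 read 81986 and 22413 FPKM in controls versus 2287 and 8969 in knockouts. Ms4a4c, a membrane protein that is also a monocyte marker, read 417 and 1211 FPKM in control libraries, and 138 and 120 in knockout libraries. Ifi30, a lysosomal thiol reductase, read 228 and 632 FPKM among controls, against 204 and 123 among knockouts. These 3 had separate groups, whereas Psmb8, an immunoproteasome subunit, read 481 and 142 FPKM in controls versus 237 and 177 in knockouts and overlapped.

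**Figure D5:**
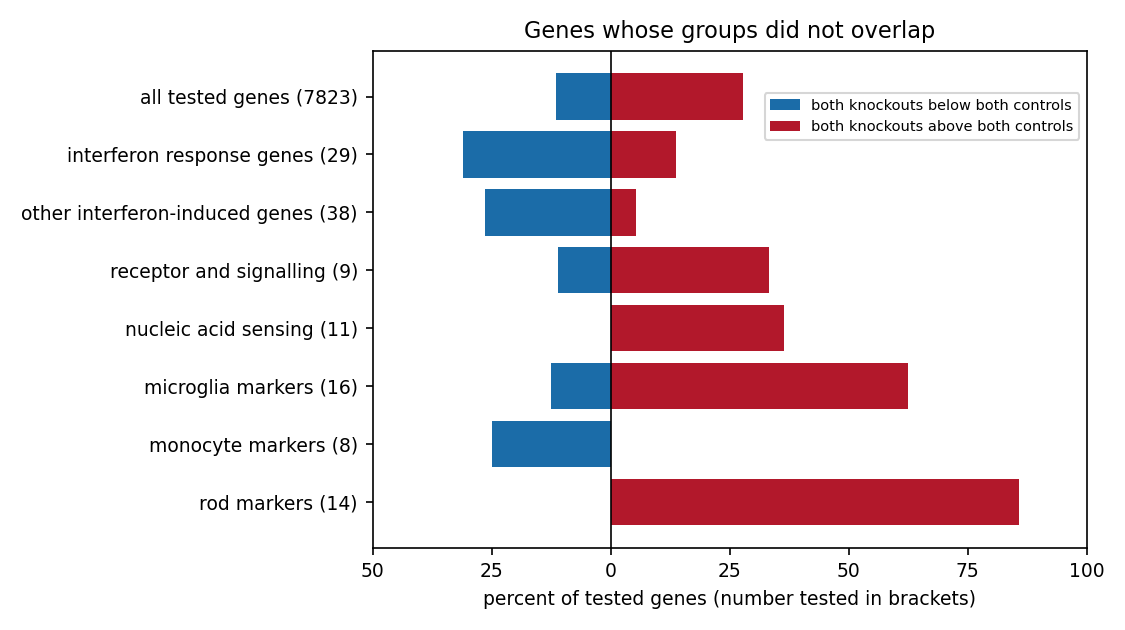
Share of the tested genes of each list whose 2 knockout values both lay above, or both below, the 2 control values, in percent, with all tested genes for comparison. The members have 4 of 29 above and 9 of 29 below, and the other interferon-induced genes 2 of 38 above and 10 of 38 below, against 27.8% above and 11.4% below for all genes.

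Markers of other cell types differed alongside. Each count of markers above or below stands against 27.8% and 11.4% of all tested genes. Of the 8 tested monocyte markers, 2 lay below the controls and 0 above, and the list summed to 885 and 1665 FPKM in control libraries, and 195 and 122 in knockout libraries. Ccr2, a chemokine receptor that defines classical monocytes, read 316 and 151 FPKM among controls, against 1.81 and 0.59 among knockouts. Ms4a4c, named above, is in this list too and made up most of its sum except in control 1. Perivascular macrophage markers (2 of 8 below, 0 above, median log2 difference 0.44) summed to 2223 and 1752 FPKM in controls versus 190 and 840 in knockouts. Ms4a7 carried that sum except in knockout 2. Without it the values were 609, 205, 0.99 and 685 FPKM in controls 1 and 2 and knockouts 1 and 2, highest in knockout 2. Clec12a, the other marker below, made up most of what was left in control 2. It read 144 and 199 FPKM in controls versus 0.36 and 0.48 in knockouts. Lyve1, F13a1, Cbr2 and Stab1 were above 1 FPKM in knockout 2 alone. Dendritic cell markers (2 of 2 below) summed to 546 and 939 FPKM in control libraries, and 38.1 and 36.5 in knockout libraries. Cd209a carried that sum in the controls, with 503 and 886 FPKM, against 1.19 and 2.10 in knockouts. Batf3 read 42.8 and 49.1 FPKM in controls versus 36.9 and 34.2 in knockouts. Zbtb46, Xcr1 and Ccr7 read 0.08 FPKM or less throughout, and Itgax 3.71 or less. Of 8 neutrophil markers 2 were measured, and of 9 lymphocyte and NK cell markers 4 were. These summed to at most 0.26 and 0.11 FPKM. The monocyte and dendritic cell sums were higher in both controls, the same side as the abundant members, and so was the perivascular macrophage sum with Ms4a7 but not without it. Their part in the members' values was not tested.

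The sums of other marker lists lay on the opposite side. Their counts also stand against 27.8% above and 11.4% below among all tested genes. Of 16 microglial markers, 10 lay above the controls and 2 below, with sums of 15927 and 16457 FPKM among controls, against 39961 and 26278 among knockouts. Rod photoreceptor markers (12 of 14 above, 0 below) summed to 2247 and 3255 FPKM in controls versus 6393 and 9402 in knockouts. Müller glia and astrocyte markers (1 of 7 above, 0 below) summed to 275 and 403 FPKM in control libraries, and 1057 and 691 in knockout libraries. Glul was the 1 above, with 84.6 and 318 FPKM among controls, against 774 and 599 among knockouts. It made up most of the sum except in control 1, and the other 6 tested genes overlapped. Endothelial and pericyte markers (3 of 3 above) summed to 0.22 and 2.43 FPKM among controls, against 172 and 37.7 among knockouts. The 3, Flt1, Vtn and Rgs5, read 0.16 FPKM or less in controls and passed the filter only through the knockouts. That count was therefore largely set by the filter. Rgs5 lay above by 0.10 FPKM in knockout 2 against 0.06 in control 2. Pecam1, Cdh5, Kdr, Pdgfrb and Cspg4 did not reach the filter. Kdr and Pdgfrb were highest in control 2, at 0.45 and 1.71 FPKM. The part of these marker lists in the values of Irf9, Zbp1, Herc6 and Ifi35 was not tested.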

How the data were processed

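The labels' protocols describe cDNA made with SMART-SeqII from 200 sorted cells per library, amplified by PCR and cut into libraries with a transposon. The authors deposited 1 FPKM value per gene and library, and the submitters' processing notes name genome build mm10. For the aligner, the counter and the annotation, nothing is given in the sources used here. Reads per library were not recoverable: among 206 to 425 low genes per pair of libraries, 6.87% to 11.9% of ratios fell in the most common bin. No counting interval was possible, and without molecular identifiers PCR copies are not independent molecules.

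The comparison used limma's moderated test with a trended prior variance (limma 3.58.1 in R 4.3.3). It was run on log2(FPKM + 1), which understates the change of low genes, for 7823 genes whose mean reached 1 FPKM. The fit had 2 residual and 3.99 prior degrees of freedom, and p-values were adjusted by Benjamini-Hochberg over all tested genes with a threshold of 0.05. An exact permutation test of 2 against 2 cannot go below p = 0.333. The code was tested on simulated data. The fit was repeated with a pseudocount of 0.1 or 5 FPKM, without a filter, with a mean of 5 FPKM or more required, and with median ratio scaling, quantile normalization, an untrended variance, the replicate number as a block and each library left out. A bound of 100 FPKM on the mean and, for members that an omission put under the filter, differences with no filter were later choices, made after seeing the data.

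Each measured member is named, with values per library where its mean reached 1 FPKM, and from each pathway list up to 4 tested genes with the highest mean, apart from a gene not reported here. Members and lists were chosen with earlier results of these data known. Coordinates, promoters and gene names are from RefSeq GRCm38.p6, and shared 50-base windows from GENCODE vM21 transcripts. Windows were taken from the longest protein-coding transcript of each member. Rtp4 and Sp100 shared 13.6% and 10.2% of theirs with other genes. Figures were drawn with matplotlib 3.10.9 in Python 3.11.15.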

Additional observations from a re-analysis of the deposited data

How the results depend on the processing

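With 2 libraries a group and unknown depth, values near 0 cannot be told from failed detection, which limits the less abundant members most. Separate groups fix the sign of 13 members under each alternative except the 2 rescalings, and neither rescaling turned it. Outside single-library omissions, Stat2 turned to 0.12 with a pseudocount of 0.1 FPKM, and Parp14 turned to -0.61 and Irf7 to -0.75 with quantile normalization, which removes the shift of the whole table. Leaving out single libraries gave ranges of -1.59 to 5.86 for Ifit1, -5.69 to 2.76 for Ifit3, -3.33 to 2.00 for Ifih1, -4.42 to 2.57 for Usp18, -2.26 to 1.16 for Slfn5, -1.82 to 1.53 for Stat2, -0.95 to 2.95 for Parp14, -1.21 to 1.11 for Trim30a and -0.50 to 0.36 for Xaf1. For omissions under the filter, added after the data were seen and with no test, values turned to -0.32 for Irf7, 0.059 for Ifit2, 0.014 for Oasl2, 0.73 for Oas1a, 0.062 for Isg20 and -0.24 for Bst2. The cause was not tested.

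Quantile normalization called 2 genes higher and 3 lower by limma, no member among them, and left 2 members above and 11 below, against 18.3% and 19.9% of genes. Median ratio scaling gave 3 above and 11 below, against 20.2% and 20.7% of genes. Among members averaging 100 FPKM or more, 0 lay above and 6 below, against 19% and 26.5% of genes. With no filter, 5 of 33 lay above and 9 below, against 19.1% and 8.67% of genes. The median of the members was -0.55 with no filter and -1.70 with quantile normalization, and from -1.59 (without control 1) to -0.32 (without control 2) with single libraries left out. Relative to the median of all genes it was -0.58 with no filter, -1.14 with a pseudocount of 5 FPKM, -1.80 as reported and -1.82 with quantile normalization, and it was -2.97 without control 1 and -1.35 without control 2. Leaving out single libraries gave 0 to 1306 genes and 0 to 1 members called higher, and 0 to 5 genes called lower. Without knockout 1, 697 genes were called higher. Members above the controls then ranged from 4 to 9, against 42.1% to 45.6% of genes, and members below from 11 to 18, against 21.3% to 27.3%.

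Replicate numbers were not shown to pair the libraries: across 7823 genes, which are not independent replicates, the within-control difference and the within-knockout difference had a correlation of 0.0166. The replicate block called 15 genes higher and 20 lower by limma (0.256% of genes lower). Among them was 1 member, Ifitm3 (adjusted p = 0.00156).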
